A study of Mus musculus with 6 samples.

Results

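The nuclear genes of the oxidative phosphorylation complexes were taken as all genes whose symbol begins with one of the families Ndufa, Ndufb, Ndufc, Ndufs, Ndufv, Sdha to Sdhd, Uqcr, Cox4 to Cox8 or Atp5. This rule found 86 of the 35485 genes in the tables, of which 37 belonged by symbol to complex I, 4 to complex II, 8 to complex III, 18 to complex IV and 19 to complex V. The study measured the retinal transcriptome by RNA-seq after optic nerve crush (ONC), an injury to the axons of retinal ganglion cells (RGCs), or after a sham operation. All mice were male C57BL/6 wild type animals of 12 weeks. In the ONC group the nerve was exposed and crushed with forceps for 10 seconds, 2 mm behind the eye, and in the sham group it was exposed only. Retinas were taken 2 days later, and each of the 3 samples per group was RNA pooled from 6 retinas of 6 mice, so that the spread between samples is a spread between pools. The whole retina was measured, in which the axotomized RGCs are a small minority, and fewer cells of a type cannot be told apart from less RNA per cell.

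Complexes I to IV of the inner mitochondrial membrane pass electrons from NADH and succinate to oxygen and, apart from complex II, pump protons, and complex V (ATP synthase) uses the proton gradient to make ATP. Their subunits come from both genomes, and several nuclear subunits of complex IV have a second gene that is known from muscle, heart, lung or testis. Retina is rich in mitochondria, above all in the inner segments of photoreceptors and in the unmyelinated axons of RGCs. The subunits encoded by mitochondrial DNA were looked for under 26 symbols. None of these was among the 35485 genes, so these subunits could not be analysed here.

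The sham libraries held 17343945 to 18349331 exon reads each and the ONC libraries 20019818 to 20358008. The RPKM values of the authors divide by all reads on genes, including introns, and the exonic share of those reads was 70.9 to 76.6% in sham and 78.5 to 80.4% in ONC. On that scale the median gene lay 0.12 (log2) higher in ONC than on the scale of the test, which was CPM (counts per unit of library size, from exon reads after TMM normalization). RPKM values are therefore given here for levels per exon length, and every log2 fold change and call between groups is on the CPM scale unless another is named. The tissue carried its markers, with the 6 rod genes summing to 18842 to 21960 RPKM. Of these 6, 2 (33.3%) rose in ONC, against 2.38% of all genes tested, and 4 did not pass. The 2 were Sag (log2 fold change 0.39, called in 19 of 19 alternatives) and Pde6b (0.18, called in 10 of 19). Of the 8 RGC markers, 7 (87.5%) fell at adjusted p under 0.1 in ONC, against 3.72% of all genes tested, while Slc17a6 rose. The median log2 fold change of the 8 was -0.79. Of 5 microglial genes 2 (40%) rose, against 2.38% of all genes tested, namely C1qa and Itgam. C1qa (0.59) was called in 10 of 19 alternatives and lost without ONC 2, ONC 3, sham 1 or sham 2. Itgam (0.76) was called in 13 of 19 and lost without any 1 sample except sham 1. Csf1r (0.41), Cx3cr1 (0.49) and Aif1 (-0.32) did not pass. The part of these cell types in the values of the members was not tested.

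Many promoters of respiratory genes are known to bind NRF-1, GABP (an ETS factor), YY1 or ERR alpha. Promoter windows from 250 bases before to 50 bases after the start were given in RefSeq (GRCm38.p6) for 66 of the 86 members, as 71 windows among 32851. The letters GCGCANGCG (NRF-1), CCGGAAG (GABP), AAGATGGC (YY1) and TCAAGGTCA (ERR alpha) were looked for on both strands, and near-palindromic NRF-1 letters can match both strands 1 base apart. NRF-1 letters were in 29.6% of member windows, against 12.3% of the windows of all genes tested and 6.25% of all windows. GABP letters were in 22.5% of member windows, against 15.6% and 8.86%. YY1 letters were in 12.7%, against 3.98% and 2.75%. ERR alpha letters were in 2 member windows (2.82%), those of Sdhd and Atp5g3, against 0.307% and 0.423%.

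**Figure D1:**
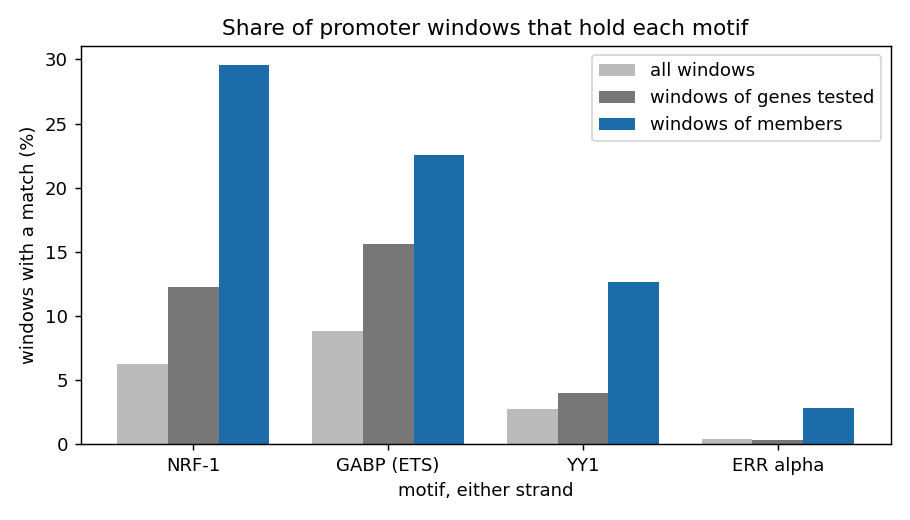
Share of promoter windows (%, y axis) that hold each of 4 motifs on either strand (x axis), for all 32851 windows, for the windows of genes tested and for the 71 member windows. The member bar is the tallest for each motif, 29.6% for NRF-1.

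The 4 windows shown are those of Sdhd, the member with the most kinds of motif, of Cox6a1, the common partner of the one member that rose, of Atp5g3, which carries the ERR alpha letters, and of Cox7b, the one member that fell. Each line gives the 250 bases before the start, 5′ to 3′ on the strand of the gene, with motif letters in capitals.

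Sdhd (GRCm38.p6, chr9:50603850-50604099, minus strand): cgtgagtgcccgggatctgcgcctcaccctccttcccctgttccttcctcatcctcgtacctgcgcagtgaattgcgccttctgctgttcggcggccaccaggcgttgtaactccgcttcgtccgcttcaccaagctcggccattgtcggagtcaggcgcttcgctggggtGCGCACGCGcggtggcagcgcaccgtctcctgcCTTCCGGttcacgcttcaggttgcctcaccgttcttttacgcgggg
Cox6a1 (GRCm38.p6, chr5:115348959-115349208, minus strand): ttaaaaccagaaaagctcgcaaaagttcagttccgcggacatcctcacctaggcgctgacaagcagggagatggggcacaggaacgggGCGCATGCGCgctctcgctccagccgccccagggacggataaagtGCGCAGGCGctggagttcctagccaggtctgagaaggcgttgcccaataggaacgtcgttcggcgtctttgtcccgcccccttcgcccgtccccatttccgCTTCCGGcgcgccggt
Atp5g3 (GRCm38.p6, chr2:73911327-73911576, minus strand): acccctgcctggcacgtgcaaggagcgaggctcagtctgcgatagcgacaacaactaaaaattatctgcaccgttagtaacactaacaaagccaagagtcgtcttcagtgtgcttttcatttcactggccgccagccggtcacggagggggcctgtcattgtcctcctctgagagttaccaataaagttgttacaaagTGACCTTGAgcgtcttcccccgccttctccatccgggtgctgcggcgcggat
Cox7b (GRCm38.p6, chrX:106015450-106015699, plus strand): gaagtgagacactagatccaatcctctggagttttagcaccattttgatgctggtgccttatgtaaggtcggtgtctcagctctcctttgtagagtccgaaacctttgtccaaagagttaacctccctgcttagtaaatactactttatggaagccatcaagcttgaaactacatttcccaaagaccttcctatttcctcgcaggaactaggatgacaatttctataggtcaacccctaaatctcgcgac

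In Sdhd the first capitals are the NRF-1 letters and the second the GABP letters on the opposite strand, which begin 79 and 46 bases before the start, and its ERR alpha letters lie after the printed stretch. In Cox6a1 the first 2 runs of capitals are NRF-1 letters and the last is GABP. In Atp5g3 the capitals are the ERR alpha letters, 52 bases before the start, and its NRF-1 letters lie after the printed stretch. None of the 4 motifs was in the whole window of Cox7b or of Atp5b, which says only that these letters are not there. By complex, NRF-1 letters were found for 8 of 32 matched genes in complex I, 2 of 3 in complex II, 2 of 5 in complex III, 1 of 13 in complex IV and 7 of 13 in complex V. The 20 genes with NRF-1 letters had a median log2 fold change of -0.01 in ONC, and the 45 tested genes without them -0.03. A match is a description of the sequence and not a binding site.

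The members were abundant in both groups. Of the 86, 82 exceeded a group mean of 0.3 RPKM and were tested, 81 of them through both groups and Cox6a2 through ONC only. The median member had a mean RPKM of 83.6, against 7.42 for all 13670 genes tested, and 76 members were above 10. Their transcripts were short, with a median exon length of 679 bases against 2877. The members lay on 19 chromosomes. Together they took 0.902 to 0.975% of the exon reads of a sample, and the groups overlapped in this share. The 4 members not tested were Cox7b2, a testis gene with 3 exon reads in sham 3 and none elsewhere, Cox8c, with no exon read in any sample, and Atp5l2 and Atp5l-ps1, for which the tables give an exon length of 0.

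Atp5b, the catalytic beta subunit of the ATP synthase head, was the most abundant member. Its RPKM was 493, 505 and 483 in sham and 536, 531 and 519 in ONC. The alpha subunit gene Atp5a1, present in the head in equal number to beta, was at 216 ± 8.91 RPKM in sham and 242 ± 5.37 in ONC (SD, n = 3). The single-copy subunits of the central stalk were lower per length, with means of 97.9 for Atp5c1 (gamma), 77.7 for Atp5d (delta) and 140 for Atp5e (epsilon). None of these 5 genes of the head and stalk passed the test, and their log2 fold changes had a median of -0.02.

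Ndufa4, named for complex I and now placed in complex IV, followed with 446, 445 and 413 RPKM in sham and 454, 522 and 458 in ONC. Cox4i1, the subunit 4 of complex IV used in most tissues, had 245, 247 and 236 RPKM in sham and 254, 278 and 268 in ONC. Cox6c, a small structural subunit, had 250, 238 and 234 RPKM in sham and 231, 269 and 249 in ONC. Atp5g3, one of the 3 genes for the c-ring, had 234, 225 and 230 RPKM in sham and 231, 256 and 239 in ONC. The groups of Atp5b, Ndufa4 and Cox4i1 were apart in RPKM but overlapped in CPM, on which their log2 fold changes were -0.02, 0.01 and 0.01 with adjusted p from 0.87 to 0.94 (edgeR).

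**Figure D2:**
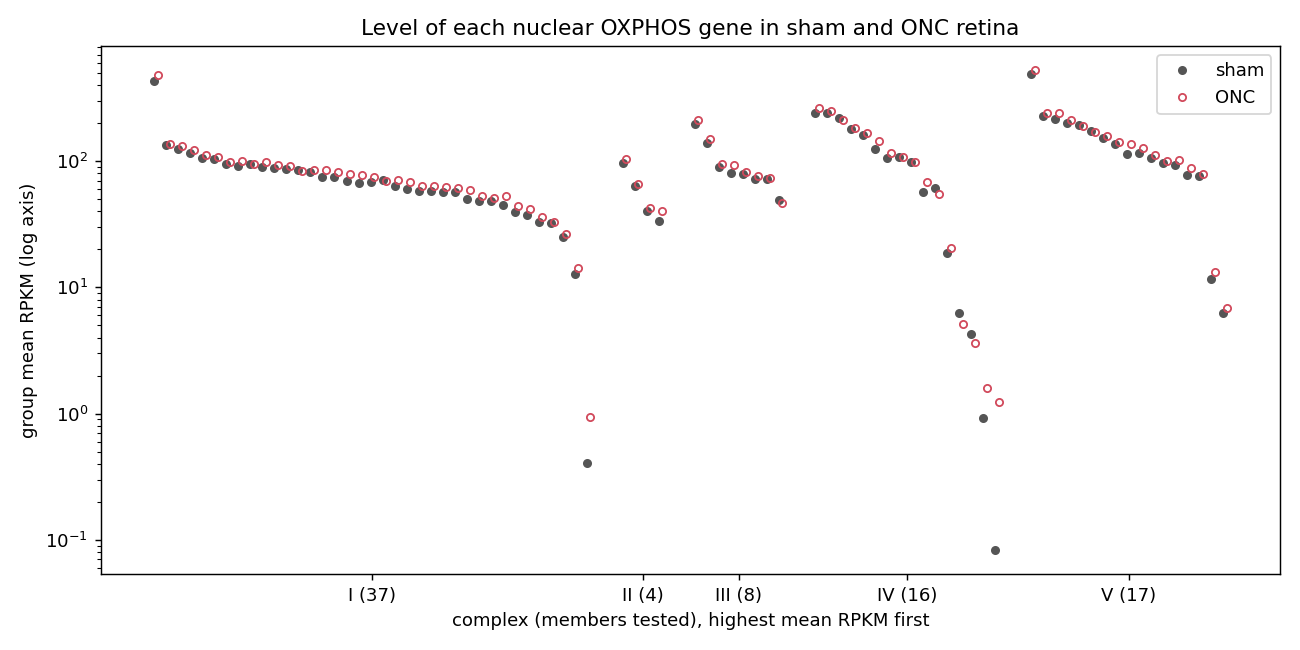
Group mean RPKM (log axis, n = 3 samples per group) of the 82 tested members, ordered by level within each complex. The highest are Atp5b (mean 511) and Ndufa4 (456), the median member lies at 83.6, and the low tail holds tissue isoforms of complex IV and Ndufa4l2.

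Across the set, nuclear OXPHOS transcripts stayed close to their sham levels 2 days after ONC. With edgeR's quasi-likelihood test and Benjamini-Hochberg adjustment over all genes, 1 member was higher in ONC at adjusted p under 0.1 (Cox6a2), where 2.38% of all genes tested were. Likewise 1 member was lower (Cox7b), where 3.72% of all genes were. At a fold change above 1.5 as well, which makes a DEG, there was 1 member (Cox6a2), against 1.66% of all genes. At an unadjusted p under 0.05 there were 4 members (Cox6a2, Cox7b, Cox8a and Uqcrfs1), 4.88% of those tested, against 16.7% of all genes. All of these were in complexes III and IV. DESeq2 called the same 2 members as edgeR. The higher member and the DEG are both Cox6a2, which passed the filter on low values only through ONC, and among the members expressed in both groups none was higher. Of the 80 members that did not pass, a missed threshold does not show equality, but the intervals were narrow. For 77 of the 82 the 95% interval of the fold change lay within 1.5-fold in either direction, and for 55 within 1.2-fold. The 5 exceptions were Cox6a2, Cox6b2, Cox7a1, Cox8b and Ndufa4l2, all with few reads.

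Log2 fold changes were below 0 for 49 members and above 0 for 33, with a median of -0.02 and quartiles of -0.07 and 0.02. Over all genes tested the median was 0.01 and the quartiles -0.11 and 0.13. The log2 fold change was smaller than 0.2 in either direction for 92.7% of members and for 69.6% of all genes. All genes are not a like reference here, as the median member had 83.6 RPKM and the median gene 7.42. Fold changes of genes with few reads scatter more, and the part of level in this contrast was not tested. The direction of the member median depended on scaling, as it was 0.10 with the RPKM denominator, where the median of all genes was 0.13. There the medians of all 5 complexes were above 0, at 0.12 in complex I, 0.11 in II, 0.08 in III, 0.05 in IV and 0.10 in V, and with total gene reads those of I, II and V were 0.01, 0.02 and 0.01. Relative to all genes the members were 0.03 lower with either denominator, which shifts all genes of a sample alike. The difference between the 2 medians changed with other processing. It was 0.0018 with total gene reads, -0.011 in limma on log2(RPKM + 1) and -0.056 with a correction for exon length.

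**Figure D3:**
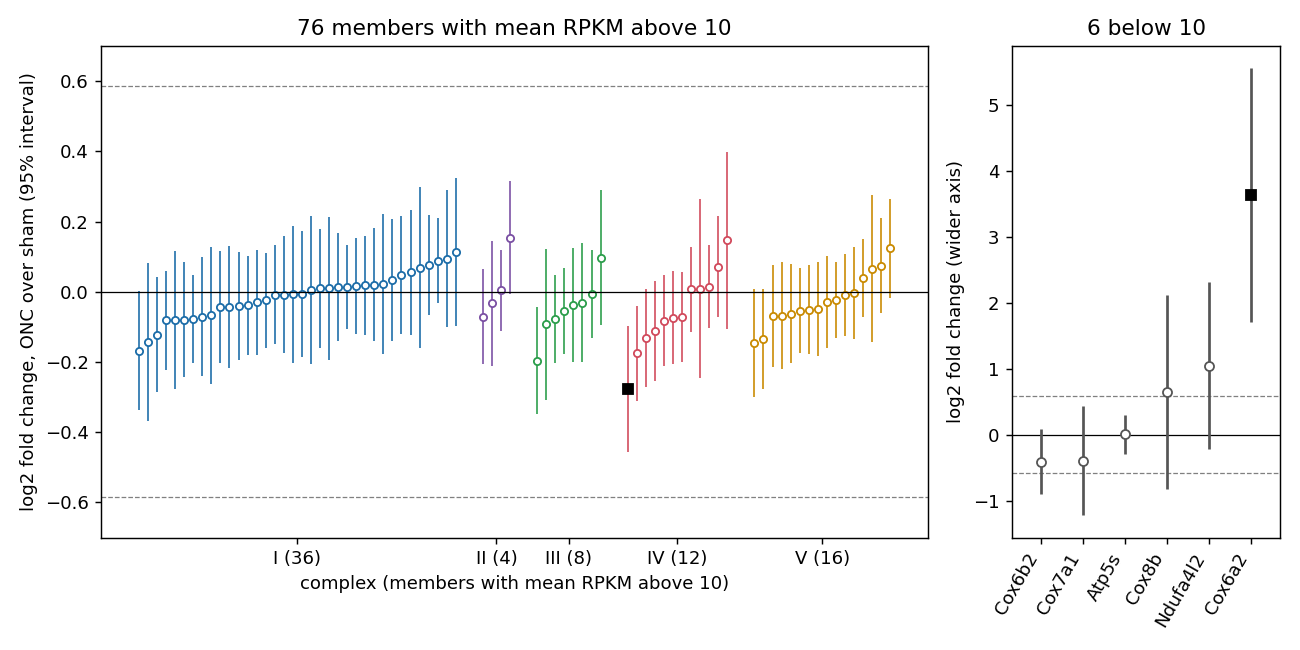
Log2 fold change of ONC over sham (y axis) with its 95% interval for each tested member, by complex, with the 6 members below a mean RPKM of 10 on a wider axis. Dashed lines mark 1.5-fold, and black squares the 2 members at adjusted p under 0.1, Cox7b (-0.28) and Cox6a2 (3.63).

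Complex I, which oxidizes NADH, had a median log2 fold change of -0.01 over 37 members by symbol, Ndufa4 and Ndufa4l2 among them. Of these 37, 19 were below 0 and none passed the test. The 7 nuclear core subunits of complex I, which carry the flavin and iron-sulfur clusters, had a median of 0.02 and no call. Among them Ndufv1, the flavin subunit, was at 144, 146 and 143 CPM in sham and 153, 154 and 152 in ONC. All ONC values lay above sham, with a log2 fold change of 0.09 ± 0.06 (SE) and an adjusted p of 0.47. The lowest value in complex I was that of Ndufa1, an accessory subunit encoded on chromosome X, at 57.9, 53.9 and 60.8 CPM in sham and 48.0, 54.0 and 51.6 in ONC. Its groups overlapped by 1 pair of nearly equal samples, and the log2 fold change of -0.17 ± 0.08 had an adjusted p of 0.31. The highest was that of Ndufa4l2, treated with the isoforms.

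Complex II, succinate dehydrogenase, is wholly nuclear-encoded, and its 4 genes had a median log2 fold change of -0.01. Sdhd, a membrane anchor, was highest, with 58.6, 56.9 and 60.2 CPM in sham and 69.2, 66.6 and 59.7 in ONC. The third ONC sample fell within the sham range, and the log2 fold change of 0.15 ± 0.08 did not pass (adjusted p = 0.33). It passed only with the RPKM denominator, at an adjusted p of 0.062. Sdhc, the other anchor, was lowest at -0.07 ± 0.06 (adjusted p = 0.62). Sdha, the flavoprotein that oxidizes succinate, had 382, 364 and 374 CPM in sham and 386, 380 and 358 in ONC, with overlapping groups.

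Complex III, which passes electrons to cytochrome c, had 7 of its 8 members below 0 and a median of -0.05 on the CPM scale. Uqcrfs1, the Rieske iron-sulfur protein, was lowest with 88.7, 91.0 and 84.1 CPM in sham and 70.3, 78.5 and 81.5 in ONC. The groups did not overlap, but the log2 fold change of -0.20 ± 0.07 did not pass (adjusted p = 0.16). It passed with a correction for exon length (-0.25, adjusted p = 0.045). Uqcrq, a small subunit, was highest at 0.10 ± 0.09 (adjusted p = 0.64), with overlapping groups.

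Complex IV, cytochrome c oxidase, reduces oxygen and held both members that passed. Its median was -0.07 over 16 tested members, the lowest of the 5 complexes. Cox7b (chrX:106015700-106022450), a small subunit needed for assembly of the complex, fell. Its CPM was 86.4, 83.3 and 81.3 in sham and 60.8, 80.0 and 66.3 in ONC. All ONC samples were below all sham samples, ONC 2 only just so, and in RPKM the groups overlapped (61.7 ± 4.78 in sham and 55.5 ± 9.34 in ONC, SD, n = 3). The log2 fold change was -0.28 ± 0.09 (95% interval -0.46 to -0.10, adjusted p = 0.084, edgeR). The call held in 9 of 19 alternatives, the adjusted p ranging from 0.0061 to 0.51, and was lost when any sample except ONC 2 was left out. The log2 fold change was -0.40 to -0.15 over these alternatives, the smallest with the RPKM denominator.

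Cox8a, the subunit 8 gene of most tissues, was at 162, 169 and 154 CPM in sham and 133, 148 and 148 in ONC. The groups did not overlap, and the log2 fold change of -0.18 ± 0.06 had an adjusted p of 0.16. Cox5a, a structural subunit, and Cox6b1, the subunit that bridges the dimer, also had all ONC samples below all sham samples, as did Cox6b2, Ndufc1 in complex I and Atp5k in complex V. In all, 8 of the 82 tested members (9.76%) had every ONC sample below every sham sample in CPM, where 10.8% of all genes did. Of these 8, 5 were among the 16 tested members of complex IV, Cox7b included. For 2 members (2.44%), Cox6a2 and Ndufv1, every ONC sample was above, where 11.0% of all genes were.

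Complex V had a median of -0.03 over 17 members, 12 of them below 0, and no call. Atp5k, the small e subunit, was lowest with 68.7, 70.3 and 67.0 CPM in sham and 58.0, 63.8 and 64.4 in ONC. Its log2 fold change of -0.15 ± 0.07 did not pass (adjusted p = 0.33), although the groups did not overlap. Atp5g2, a c-ring gene, was highest at 0.12 ± 0.07 (adjusted p = 0.37). Atp5s and Atp5sl match the symbol rule but are listed in RefSeq as Dmac2l and Dmac2. They were the least abundant tested Atp5 genes, with mean RPKM of 6.56 and 12.4, and had log2 fold changes of 0.01 and 0.07.

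The members were also summed up sample by sample. The median log2 difference of the tested members from the sham mean was 0.01, -0.03 and 0.02 in sham and -0.07, 0.02 and -0.03 in ONC. ONC 2 lay next to the highest sham median and ONC 3 next to the lowest. ONC 1 lay below both and was the lowest sample for 34 of the 82 members in CPM. For complex IV the ONC medians were -0.11, -0.0031 and -0.10, against 0.0039, -0.03 and 0.04 in sham. For complex I they were -0.07, 0.03 and 0.01, against 0.02, -0.04 and 0.02. The groups overlapped in these medians for complexes I to IV. For complex V the ONC medians were -0.06, -0.0055 and -0.05, all below the sham medians of 0.00017, -0.0025 and 0.0055, ONC 2 only just so. A difference between complexes was not tested.

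**Figure D4:**
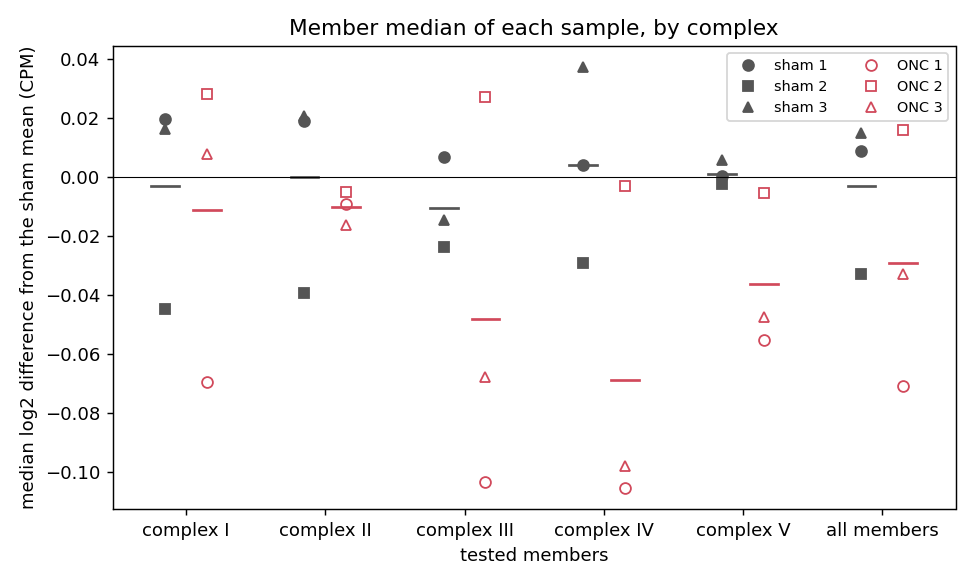
Median log2 difference (CPM) of each sample from the sham mean over the tested members of each complex and over all 82, with filled symbols for sham, open symbols for ONC and a bar at each group mean. ONC 2 lies above ONC 1 in every column and ONC 1 is the lowest sample in every column except complex II.

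The tissue isoforms were compared with their common partners by level per exon length. Cox6a1 was at 174, 161 and 150 RPKM in sham and 158, 175 and 168 in ONC. Cox6a2 (chr7:128205435-128206366), the form of heart and skeletal muscle, rose from a level near 0. It had 0, 0 and 4 exon reads in sham and 27, 23 and 12 in ONC, or 0, 0 and 0.248 RPKM against 1.62, 1.40 and 0.702. Every ONC sample was above every sham sample, and no read lay in its introns. The reads summed to 62 in ONC and 4 in sham, a ratio per exon read of 13.6 with an exact 95% counting interval of 5.05 to 51.5, which covers counting error only. The fitted log2 fold change was 3.63 ± 0.92 (adjusted p = 0.029, edgeR), and it depends on the prior count. It ranged from 1.03 in limma on log2(RPKM + 1) to 7.31 without sham 3, the sample that held all 4 sham reads. The call was lost without sham 2 (adjusted p = 0.14) and held in the 18 other alternatives.

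Cox6a2 passed the filter on low values only through ONC, so at its sham level in both groups it would not have been tested. Its share of Cox6a1 and Cox6a2 together was 0, 0 and 0.165% in sham and 1.02, 0.794 and 0.415% in ONC. The last 70 bases of Itgad, an integrin gene, overlap Cox6a2, and reads were counted without strand. Itgad had 0, 0 and 0 exon reads in sham and 0, 2 and 1 in ONC. Of 8 skeletal muscle markers 4 were expressed enough to be tested and none passed (1 at an unadjusted p under 0.05, 0 by DESeq2), and their summed level was 3.30 to 4.07 RPKM in sham and 4.87 to 5.90 in ONC. The myosin genes Myh1, Myh2 and Myh4 had 0 to 2 exon reads in each sample. Tnni2, the fast skeletal troponin I, had 0, 0 and 0 exon reads in sham and 13, 5 and 0 in ONC. It was the marker at an unadjusted p under 0.05, and like Cox6a2 it passed the filter only through ONC. The muscle creatine kinase gene Ckm had 44, 47 and 53 in sham and 17, 51 and 58 in ONC, a log2 fold change of -0.42 (adjusted p = 0.64). Mylpf, a fast muscle myosin light chain, had 34, 27 and 34 in sham and 64, 38 and 54 in ONC (adjusted p = 0.52). The skeletal actin gene Acta1 had 21, 8 and 24 in sham and 37, 39 and 44 in ONC (adjusted p = 0.30). Every ONC sample of Acta1 was above every sham sample in CPM, where 11.0% of all genes were. The part of muscle tissue in the Cox6a2 result was not tested.

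The other minor isoforms did not pass. Cox4i2, the lung form that is also known in oxygen-sensing cells, was expressed at 18.8, 19.6 and 17.9 RPKM in sham and 18.4, 23.5 and 19.9 in ONC, 7.19% ± 0.147 and 7.16% ± 0.545 of subunit 4 (SD, n = 3). It was the one minor form of complex IV at a mean RPKM above 10. Cox6b2, known from testis, had 6.84, 6.57 and 5.55 RPKM in sham and 4.71, 5.06 and 5.74 in ONC. It was the lowest member of complex IV, at a log2 fold change of -0.41 ± 0.23 (adjusted p = 0.40), and its CPM did not overlap between groups. Cox7a1, a muscle form, had 2.85, 4.68 and 5.36 RPKM in sham and 3.995, 3.84 and 2.95 in ONC, against group means of 98.6 and 99.4 for Cox7a2. Cox8b, a muscle form, had 0.959, 0.690 and 1.13 RPKM in sham and 1.74, 2.77 and 0.319 in ONC, with the ONC values on both sides of sham.

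Ndufa4l2, a paralog of Ndufa4 known to respond to hypoxia, had 0.181, 0.391 and 0.637 RPKM in sham and 0.616, 1.504 and 0.681 in ONC. The groups overlapped and its log2 fold change of 1.05 ± 0.60 (95% interval -0.21 to 2.31) had an adjusted p of 0.40. It overlaps Shmt2 by 32 bases, and reads were counted without strand. Shmt2 had 631, 526 and 595 exon reads in sham and 863, 1027 and 1040 in ONC, and its part in the Ndufa4l2 value was not tested. Cox7a2l, a relative of Cox7a2, was at 161, 171 and 165 CPM in sham and 165, 168 and 166 in ONC, with overlapping groups and a log2 fold change of 0.01.

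The 3 c-ring genes encode the same mature protein behind different import sequences. Atp5g3 made up 54.6, 52.7 and 56.1% of their RPKM in sham and 52.2, 51.8 and 51.5% in ONC, with every ONC sample below sham. Atp5g2 made up 27.2% ± 0.958 and 29.1% ± 1.33, and Atp5g1 18.3% ± 0.794 and 19.0% ± 0.962 (SD, n = 3). Over the 10 isoform shares compared, the exact permutation test gave the smallest p that 3 against 3 samples allow, 0.1, for Cox6a2 and Atp5g3, and 0.5 for both after Benjamini-Hochberg adjustment (two-sided).

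**Figure D5:**
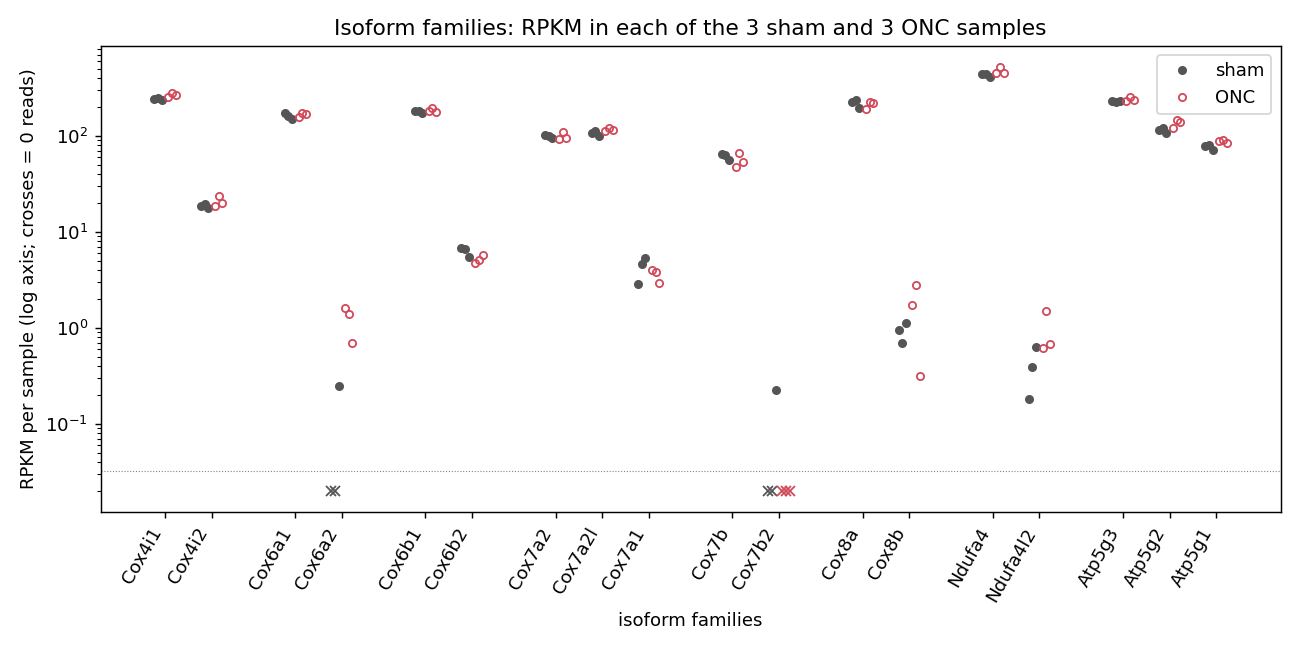
RPKM (log axis) of each isoform gene in each of the 3 sham (filled) and 3 ONC (open) samples, with samples without reads as crosses below the dotted line. Cox6a2 has 3 ONC values from 0.702 to 1.62 above its 1 sham value of 0.248, while its partner Cox6a1 lies at 150 to 175 in both groups.

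The c-ring shares rest partly on reads that map to several places. For 68 tested members at least 99% of the exon reads were unique, but for 12 fewer than 90% were, so that their counts could be shared with related copies. The unique share was 1.22% for Atp5g2, 9.03% for Atp5l, 13.3% for Ndufb4, 20.03% for Cox7c and 37.8% for Atp5g1. It was 59.3% for Ndufs5, 75.1% for Cox7a2l, 77.8% for Atp5h, 81.9% for Ndufs3, 86.6% for Ndufa12, 86.7% for Cox5b and 87.6% for Ndufs1. With unique reads only, the log2 fold change of Atp5g2 turned from 0.12 to -0.33, on 14 to 32 reads per sample, and that of Cox7c from 0.15 to -0.05. Neither passed the test either way. Both members that passed had only unique reads. In all, 10 members overlapped another gene of the tables, by 26 to 14704 bases.

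Genes around the chain were followed in lists. Among 6 further subunits and carriers outside the symbol rule, such as cytochrome c (Cycs) and Cyc1, none passed (0 at an unadjusted p under 0.05, 0 by DESeq2), with a median log2 fold change of -0.10. Among 40 tested assembly factors 1 (2.50%) rose, where 2.38% of all genes did, and 4 (10.0%) had an unadjusted p under 0.05, where 16.7% did. DESeq2 also called 1. The edgeR call was Ndufaf3, a complex I assembly factor, with 21.4, 20.5 and 22.1 CPM in sham and 29.3, 25.6 and 26.2 in ONC, and a log2 fold change of 0.34 ± 0.11 (adjusted p = 0.094). Its call held in 10 of 19 alternatives and was lost without any 1 of the 6 samples, with values of 0.28 to 0.37. None of 13 transcriptional regulators, such as Ppargc1a, Nrf1, Esrra and Tfam, passed (0 at an unadjusted p under 0.05, 0 by DESeq2), and their log2 fold changes lay between -0.16 and 0.22.

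Of 17 tested genes of the tricarboxylic acid cycle and pyruvate dehydrogenase, 1 (5.88%) rose, where 2.38% of all genes did. This was the NAD-dependent isocitrate dehydrogenase subunit Idh3g (log2 fold change 0.29 ± 0.09, adjusted p = 0.075), a call that held in 11 of 19 alternatives. It was lost without ONC 2, ONC 3, sham 1 or sham 2 (values of 0.20 to 0.32), with the length correction alone or with the replicate block, and in both limma fits (adjusted p = 0.11 to 0.18 in these 4). Of 17 glycolytic genes 7 (41.2%) fell, where 3.72% of all genes did, and none rose, with a median of -0.10. But with the RPKM denominator 1 fell, 1 rose and the median was 0.02, and with total gene reads 2 fell. The share of all genes is also not matched for level, and smaller changes can pass in abundant genes. Aldoc passed at -0.16 ± 0.05 (SE), while Cox6b2, with few reads, did not at -0.41 ± 0.23. Hk2, a hexokinase that binds to mitochondria, fell most, with 360, 489 and 405 CPM in sham and 290, 250 and 289 in ONC (log2 fold change -0.60 ± 0.09, adjusted p = 0.00018). Pgam1 (-0.27), Tpi1 (-0.23), Ldhb (-0.23), Pgk1 (-0.20), Pfkl (-0.18) and Aldoc (-0.16) were the others, and each of the 7 calls held in 8 to 18 of 19 alternatives.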

How the data were processed

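RNA-seq libraries of 3 sham and 3 ONC pools were analysed. Mapping was done by the authors in CLC Genomics Workbench (their notes name mm9, while the positions in the tables match GRCm38), and they deposited, per gene and sample, counts of exon and gene reads, all and unique, without normalization. The deposited RPKM values divide total exon reads by exon length and by all reads on genes. Genes with a mean RPKM above 0.3 in either group were kept (13670). Exon counts were tested with edgeR 4.0.16 (TMM, glmQLFit, glmQLFTest; condition only) in R 4.3.3, with Benjamini-Hochberg adjustment over all kept genes. Alternatives used DESeq2 1.42.0 and limma 3.58.1. The edgeR test was also run on simulated counts with the same spread set for all genes, which does not check the calls made here on few reads. Isoform shares were compared by exact permutation tests. Members and gene lists were chosen with earlier results of these data known. Named were the members past the threshold, the highest and lowest of each complex, the 5 most abundant, all isoform genes, untested members and members with under 90% unique exon reads. Others named (Cox8a, Uqcrfs1, Ndufv1, Ndufc1, Cox5a, Sdha, the genes of the ATP synthase head and stalk, Atp5s, Atp5sl, single list genes) were added after their values were seen. Older symbols were matched through RefSeq.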

Additional observations from a re-analysis of the deposited data

How the results depend on the processing

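With the RPKM denominator in edgeR, 4 members (Cox6a2, Atp5g2, Ndufv1 and Sdhd) were higher and 0 lower at adjusted p under 0.1, and limma on log2(RPKM + 0.1) and log2(RPKM + 1) also left 0 lower. The member median was then 0.098, 0.099 and 0.098. Exon reads without TMM and total gene reads left 0 lower, and counting only members expressed in both groups, an alternative chosen after seeing the data, left 0 higher. A correction for exon length gave 3 lower (Cox7b, Cox8a and Uqcrfs1), or 2 together with the replicate block. Leaving out 1 sample gave 0 to 2 higher, 0 to 1 lower, 0 to 1 DEGs and a member median of -0.055 to -0.0082. The cause of these changes was not tested, except that fewer samples were used in the last. Same-numbered samples showed no shared deviation (correlations -0.05, -0.03 and 0.00), which does not settle whether they were handled as pairs. Under the replicate block 1 member was higher and 1 lower, as without it, and all genes called fell from 833 to 728.

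Named members without a call changed sign as follows, none of them reaching the threshold on the other side. On the RPKM denominator or in limma the log2 fold changes of 15 became 0.099 for Atp5b, 0.11 for Atp5c1, 0.060 or 0.061 for Atp5d, 0.052 or 0.053 for Atp5e, 0.074 or 0.073 for Atp5g3, 0.095 or 0.093 or 0.092 for Atp5h, 0.047 or 0.049 or 0.048 for Cox6a1, 0.041 or 0.040 for Cox6b1, 0.052 or 0.050 or 0.049 for Cox6c, 0.011 or 0.0084 or 0.0083 for Cox7a2, 0.077 or 0.078 for Ndufb4, 0.00011 for Ndufc1, 0.12 or 0.13 for Ndufs3, 0.081 or 0.083 or 0.082 for Ndufs5, 0.049 or 0.052 or 0.051 for Sdhc. With the length correction, alone or with the replicate block, those of 8 became -0.042 or -0.037 for Atp5s, -0.015 for Cox4i1, -0.027 or -0.028 for Cox4i2, -0.043 for Cox7a2l, -0.014 or -0.021 for Ndufa12, -0.00035 or -0.00065 for Ndufa4, -0.0079 or -0.0067 for Ndufs1, -0.022 or -0.023 for Sdha. With total gene reads those of 9 became 0.021 for Atp5b, 0.012 for Atp5c1, 0.039 for Atp5h, -0.036 for Atp5s, -0.013 for Cox4i2, 0.0025 for Cox6c, 0.016 for Ndufb4, 0.013 for Ndufs3, 0.0091 for Ndufs5. With unique reads they became -0.33 for Atp5g2, -0.029 for Cox7a2l, -0.055 for Cox7c, and the Atp5g2 share from unique reads changed by -0.13 percentage points. The replicate block gave -0.0015 for Ndufa12, 0.0030 for Ndufs3, exon reads without TMM 0.0015 for Atp5b, 0.017 for Atp5c1, 0.019 for Ndufs3, and DESeq2 or its size factors -0.00036 for Sdha. Leaving out 1 sample gave ranges of -0.051 to 0.0045 for Atp5b, -0.037 to 0.013 for Atp5c1, -0.090 to 0.078 for Atp5s, -0.0040 to 0.14 for Atp5sl, -0.0064 to 0.038 for Cox4i1, -0.080 to 0.066 for Cox4i2, -0.019 to 0.029 for Cox7a2l, -0.086 to 0.11 for Ndufa12, -0.039 to 0.037 for Ndufa4, -0.089 to 0.012 for Ndufb4, -0.020 to 0.076 for Ndufs1, -0.12 to 0.10 for Ndufs3, -0.074 to 0.00066 for Ndufs5, -0.018 to 0.032 for Sdha. The Cox4i2 share changed by -0.35 to 0.16 percentage points. The log2 ratio of isoforms could not be taken for Cox6a2 and Cox7b2, which had samples without reads. Members under about 1 RPKM rest on few reads, and small changes there were not detectable at this depth.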
